A study of Homo sapiens with 12 samples.

Results

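Peaks of the RNA- and DNA-binding protein hnRNPK were examined at 10 long noncoding RNA (lncRNA) genes, which were LINC01767, NEAT1, MALAT1, GAS5, SNHG1, SNHG12, SNHG15, PVT1, TUG1 and CCAT1. They were chosen by name as abundant nuclear or colorectal cancer lncRNA genes, with LINC01767 as the lncRNA under study. The choice was made with earlier results of these data known, so the shares and tests below are not independent support. The genes stand beside 18866 lncRNA genes of GENCODE release 44, a catalogue of human genes. A gene was said to carry a peak when a peak met the gene record or the 5 kb before it, the rule used in the study. By this rule 6 of the 10 genes carried a peak in at least 1 list, and 15 of the 16214 peaks on chromosomes 1 to 22, X and Y lay on them. CRLM1 is the study's name for the transcript of LINC01767.

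The peaks came from ChIP-seq, the sequencing of DNA recovered with an anti-hnRNPK antibody from cross-linked chromatin, in HCT116, an established human colorectal carcinoma line. All 3 groups overexpressed hnRNPK, and they differed in carrying CRLM1 (CRLM1-OE), an empty control or an antisense control. Each group had 2 replicates, each with an immunoprecipitated library and an input library, and the authors deposited 1 peak list per immunoprecipitated library. Both CRLM1-OE lists, with 4339 and 3163 peaks used, were longer than the empty control lists with 1619 and 2607 and the antisense control lists with 2262 and 2224. Per the study's methods, CRLM1 was cloned as a full-length cDNA, which holds exons without introns, and the cells were selected after lentiviral transduction. Therefore, sequence from the cell's own LINC01767 exons and from the construct cannot be told apart in the CRLM1-OE lists. The labels do not describe the antisense construct further. Cells without hnRNPK overexpression were not analysed here.

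hnRNPK binds cytosine-rich RNA and single-stranded DNA through its KH domains. NEAT1 is the scaffold RNA of paraspeckles, and hnRNPK is known to favour its long isoform, while MALAT1 is a transcript of nuclear speckles. GAS5, SNHG1, SNHG12 and SNHG15 host small nucleolar RNAs (snoRNAs) in their introns, which guide the modification of other RNAs. PVT1 and CCAT1 are neighbours of the oncogene MYC, and TUG1 is a spliced lncRNA with nuclear and cytoplasmic forms.

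The sequences below belong to peaks of 4 of these genes, chosen by rank or by what the peak covered, and capitals mark every run of at least 4 C or 4 G, the latter being runs of C on the other strand. All are written from 5' to 3' on the strand of the gene, in GRCh38. The 4 exons of the LINC01767 transcript ENST00000451914, on the plus strand, are shown because 2 peaks split them.
LINC01767 exon 1, chr1:56414918-56415150: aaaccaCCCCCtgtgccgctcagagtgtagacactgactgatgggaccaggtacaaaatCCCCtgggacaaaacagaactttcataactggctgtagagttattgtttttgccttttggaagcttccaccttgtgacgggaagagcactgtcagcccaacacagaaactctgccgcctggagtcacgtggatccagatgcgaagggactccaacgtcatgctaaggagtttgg
LINC01767 exon 2, chr1:56415248-56415342: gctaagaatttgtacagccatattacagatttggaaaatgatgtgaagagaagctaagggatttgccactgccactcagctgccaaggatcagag
LINC01767 exon 3, chr1:56415533-56415609: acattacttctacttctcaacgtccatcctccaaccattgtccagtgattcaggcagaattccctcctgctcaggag
LINC01767 exon 4, chr1:56415782-56415966: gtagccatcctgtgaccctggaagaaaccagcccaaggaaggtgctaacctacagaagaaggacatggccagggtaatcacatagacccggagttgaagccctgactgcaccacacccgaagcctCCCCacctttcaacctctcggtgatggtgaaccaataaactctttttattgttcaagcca
The next are 300 bases at the centre of the highest-scoring MALAT1 peak, on the plus strand, within the GENCODE record but past the 3' end of the RefSeq record.
MALAT1, chr11:65507073-65507372: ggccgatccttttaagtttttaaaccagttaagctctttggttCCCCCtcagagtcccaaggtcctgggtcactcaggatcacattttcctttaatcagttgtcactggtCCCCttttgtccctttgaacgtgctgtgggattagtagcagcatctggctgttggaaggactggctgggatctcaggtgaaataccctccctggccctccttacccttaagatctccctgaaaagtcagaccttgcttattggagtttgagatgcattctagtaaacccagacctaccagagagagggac
The last are 300 bases at the centre of the SNHG1 peak that covered snoRNA genes, on the minus strand, and the RefSeq promoter window of SNHG12 (build GRCh38.p14, minus strand, 300 bases across a transcript start), all of which lay inside a peak.
SNHG1, chr11:62854293-62854592: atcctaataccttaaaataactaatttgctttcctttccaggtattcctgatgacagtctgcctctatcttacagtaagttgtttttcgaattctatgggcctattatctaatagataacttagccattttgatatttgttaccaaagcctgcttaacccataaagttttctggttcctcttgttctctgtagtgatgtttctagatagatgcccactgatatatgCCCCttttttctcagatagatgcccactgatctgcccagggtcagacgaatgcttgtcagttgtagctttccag
SNHG12, chr1:28581824-28582123: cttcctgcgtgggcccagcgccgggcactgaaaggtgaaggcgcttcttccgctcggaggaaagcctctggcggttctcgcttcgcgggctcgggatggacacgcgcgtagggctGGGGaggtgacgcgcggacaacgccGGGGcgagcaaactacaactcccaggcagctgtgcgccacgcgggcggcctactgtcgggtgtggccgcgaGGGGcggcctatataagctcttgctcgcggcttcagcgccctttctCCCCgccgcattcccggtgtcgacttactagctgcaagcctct

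LINC01767 on chromosome 1 (56414918 to 56417137, plus strand) had peaks in CRLM1-OE replicate 2 alone, and those peaks followed the ends of the transcript. The transcript above, 590 nt in 4 exons, matched all 9 CRLM1 capture probes that the study designed for another assay. The first peak covered 100% of exon 1 and ran 130 bp upstream of it and 115 bp past it. The second covered 100% of exon 4, starting 84 bp before it and ending 87 bp after it. The internal exons were largely outside, with 18.9% of exon 2 (95 nt) and 0% of exon 3 (77 nt) inside a peak. Sequencing reads were 151 nt, longer than either of these exons, and whether read length bears on the pattern was not tested. In all, 436 exonic bases, or 73.9% of the transcript, lay in the 2 peaks, which were 432 bp apart. Of the 9 probes, 5 lay wholly in the peaks, 2 in part and 2 outside. The transcript held 3 runs of at least 4 C, of which 2 were in exon 1 and 1 in exon 4, so all 3 lay under the peaks. The forward cloning primer of the study starts at position 46 of this transcript, past the first run of exon 1. The cloned CRLM1 is thus shorter than the transcript shown and lacks that run. The internal exons held 0 such runs. CRLM1-OE replicate 1, which carries the same construct by its label, had 0 peaks on LINC01767, so the 2 replicates differed at the gene the experiment was built on.

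**Figure D1:**
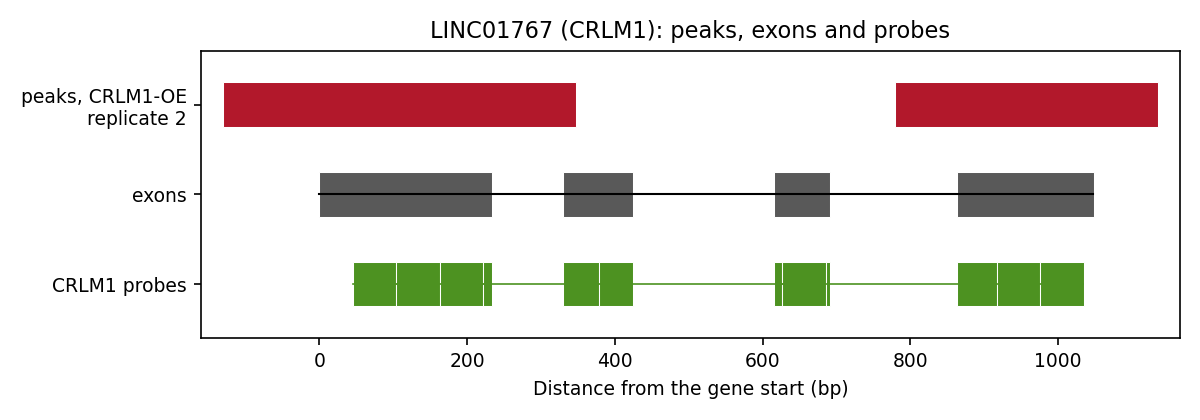
Positions of the 2 LINC01767 peaks of CRLM1-OE replicate 2 (top), the 4 exons of transcript ENST00000451914 (middle) and the 9 CRLM1 probes (bottom), in bp from the gene start. The peaks cover exons 1 and 4, and exons 2 and 3 lie largely in the 432 bp between them.

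Among the nuclear body transcripts, MALAT1 had higher ranked peaks than NEAT1 within each CRLM1-OE list, and no 2 NEAT1 peaks overlapped. MALAT1 on chromosome 11 (65497640 to 65508073, plus strand) had 1 peak in CRLM1-OE replicate 1, at 65505007 to 65505996, with a score of 81.27 and rank 316 of 4339. The score is the peak caller's value as deposited, and since its scale is not given, ranks within a list are used here, with rank 1 the highest score. In CRLM1-OE replicate 2 it had a peak at 65498983 to 65501948 (rank 166 of 3163) and a peak at 65506351 to 65508094 (score 177.58, rank 55 of 3163). The latter covered the 3' end of the GENCODE record, and its midpoint was exonic in 1 of 66 transcripts. The RefSeq record of MALAT1 ends at 65506516, so most of that peak lay past it. The replicates thus both met the gene, while their peaks did not overlap, and the closest pair was 354 bp apart. TALAM1, the antisense transcript of the locus, met the rule with the same 3 peaks, and the peak at rank 55 covered its start. The strand of the signal is not known from ChIP-seq. All 4 control lists had 0 peaks on MALAT1.

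NEAT1 on chromosome 11 (65422774 to 65445540, plus strand) had 4 peaks in 3 lists. CRLM1-OE replicate 1 had 2 peaks in the first part of the gene, at 65424583 to 65425509 (rank 2081 of 4339) and 65427352 to 65428244 (rank 1575 of 4339), with midpoints 2.27 and 5.02 kb from the start. The single peak of CRLM1-OE replicate 2 lay outside the gene, with its midpoint 3627 bp upstream, and ranked 2587 of 3163. The best ranked NEAT1 peak, 158 of 2262, belonged to antisense control replicate 1. This peak, at 65444215 to 65445143, had its midpoint 21.9 kb from the start, near the 3' end of the long isoform, and covered sequence of the microRNA gene MIR612. Counted by gene, NEAT1 was met by both CRLM1-OE replicates, but the nearest of their peaks were 4819 bp apart, and with the gene body alone replicate 2 no longer met it.

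**Figure D2:**
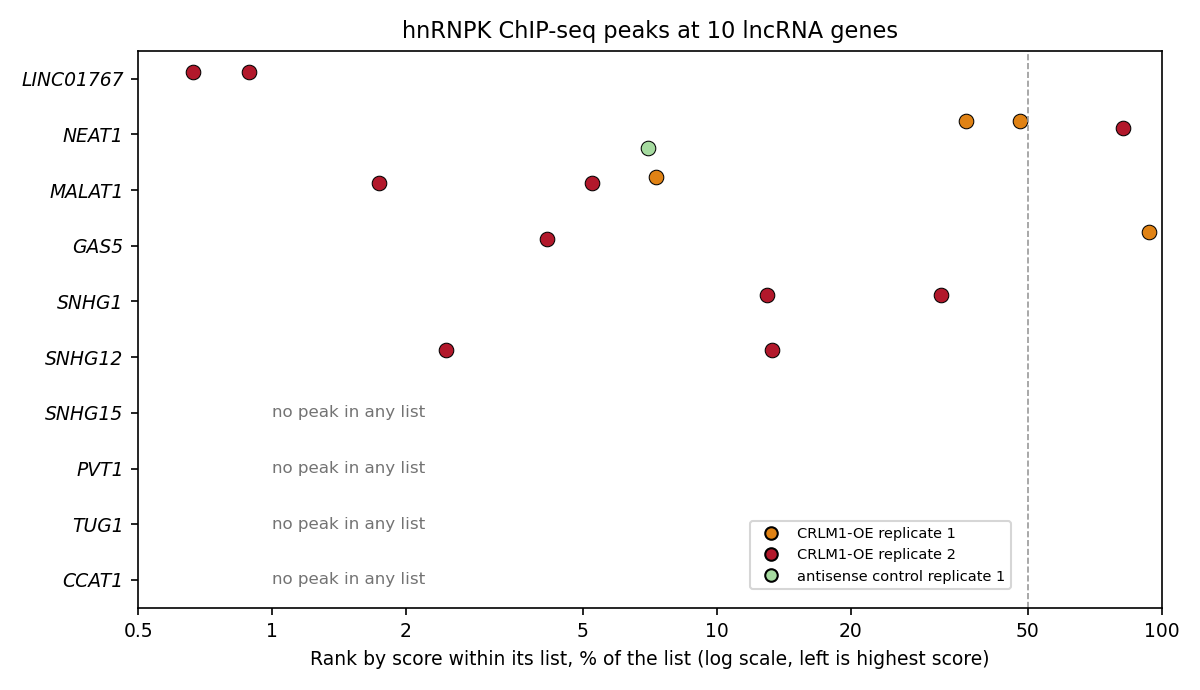
Rank by score of the 15 peaks within their lists, as a percentage of the list on a log scale (the highest scores are at the left), for the 10 genes, coloured by list; the dashed line is the middle of a list. The LINC01767 peaks are at 0.664% and 0.885%, the GAS5 peak of CRLM1-OE replicate 1 is at 93.8%, and SNHG15, PVT1, TUG1 and CCAT1 have none.

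Of the snoRNA host genes, GAS5 was the only gene among the 10 where counted peaks of both CRLM1-OE lists overlapped. An overlap with an uncounted peak at the edge of SNHG12 is described below. GAS5, a transcript known to rise on growth arrest, lies on chromosome 1 (173858559 to 173868882, minus strand). Its peak in CRLM1-OE replicate 1, at 173862324 to 173863492, had a score of 50.63 and ranked 4071 of 4339, close to the lowest score of 50. The peak in replicate 2, at 173861563 to 173863472, had a score of 115.19 and ranked 131 of 3163. They shared 1149 bp. Both midpoints were intronic, and neither peak touched any of the 12 exons of the canonical transcript. GAS5-AS1, an antisense gene at 173862473 to 173863941, held 1020 bp of the first peak and 1000 bp of the second. The extent of GAS5 also differs between catalogues, and both peaks lay outside the RefSeq record, 408 and 428 bp past its 3' edge. ZBTB37, a divergent neighbour, met the rule with the same peaks. The 4 control lists had 0 peaks on GAS5.

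SNHG1 and SNHG12 each had 2 peaks in CRLM1-OE replicate 2 and 0 in the other lists. At both genes 1 peak lay inside the gene and touched snoRNA records, and 1 lay at the 3' end. At SNHG1 on chromosome 11 (62851978 to 62855953, minus strand) the internal peak, at 62853666 to 62855219, ranked 1011 of 3163 and met SNORD22, SNORD27, SNORD28 and SNORD30. These are 4 of the 7 snoRNA records in the gene. Its midpoint was exonic in 24 of 80 transcripts. The other SNHG1 peak, at 62850193 to 62852548 (rank 409 of 3163), covered the gene end and had its midpoint downstream. The neighbour SLC3A2, an amino acid transporter subunit, met the rule with both peaks.

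At SNHG12 on chromosome 1 (28578538 to 28583132, minus strand) the internal peak, at 28580611 to 28582407, had a score of 143 and ranked 78 of 3163. It held the starts of 15 of the 19 transcripts, although the start of the gene record itself lay outside it. It met 2 of the 5 snoRNA records in the gene, both named SNORA16A. The peak ran from 0.725 to 2.52 kb from the gene start, and the first snoRNA record began at 2.08 kb, so most of it lay before the snoRNAs. The RefSeq promoter window inside this peak, printed above, had a GC content of 67.3% with 1 run of at least 4 C and 3 of at least 4 G. The SNHG12 peak at the 3' end, at 28577369 to 28578600 (rank 421 of 3163), also lay on TRNAU1AP, which acts in selenocysteine tRNA biology. There CRLM1-OE replicate 1 had a peak too. It ran from 28576880 to 28578193, ranked 55 of 4339 and overlapped that of replicate 2 by 825 bp, but it ended 345 bp short of the SNHG12 record and was not counted. SNHG12 is therefore a gene whose count in CRLM1-OE replicate 1 turned on the edge of the record.

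**Figure D3:**
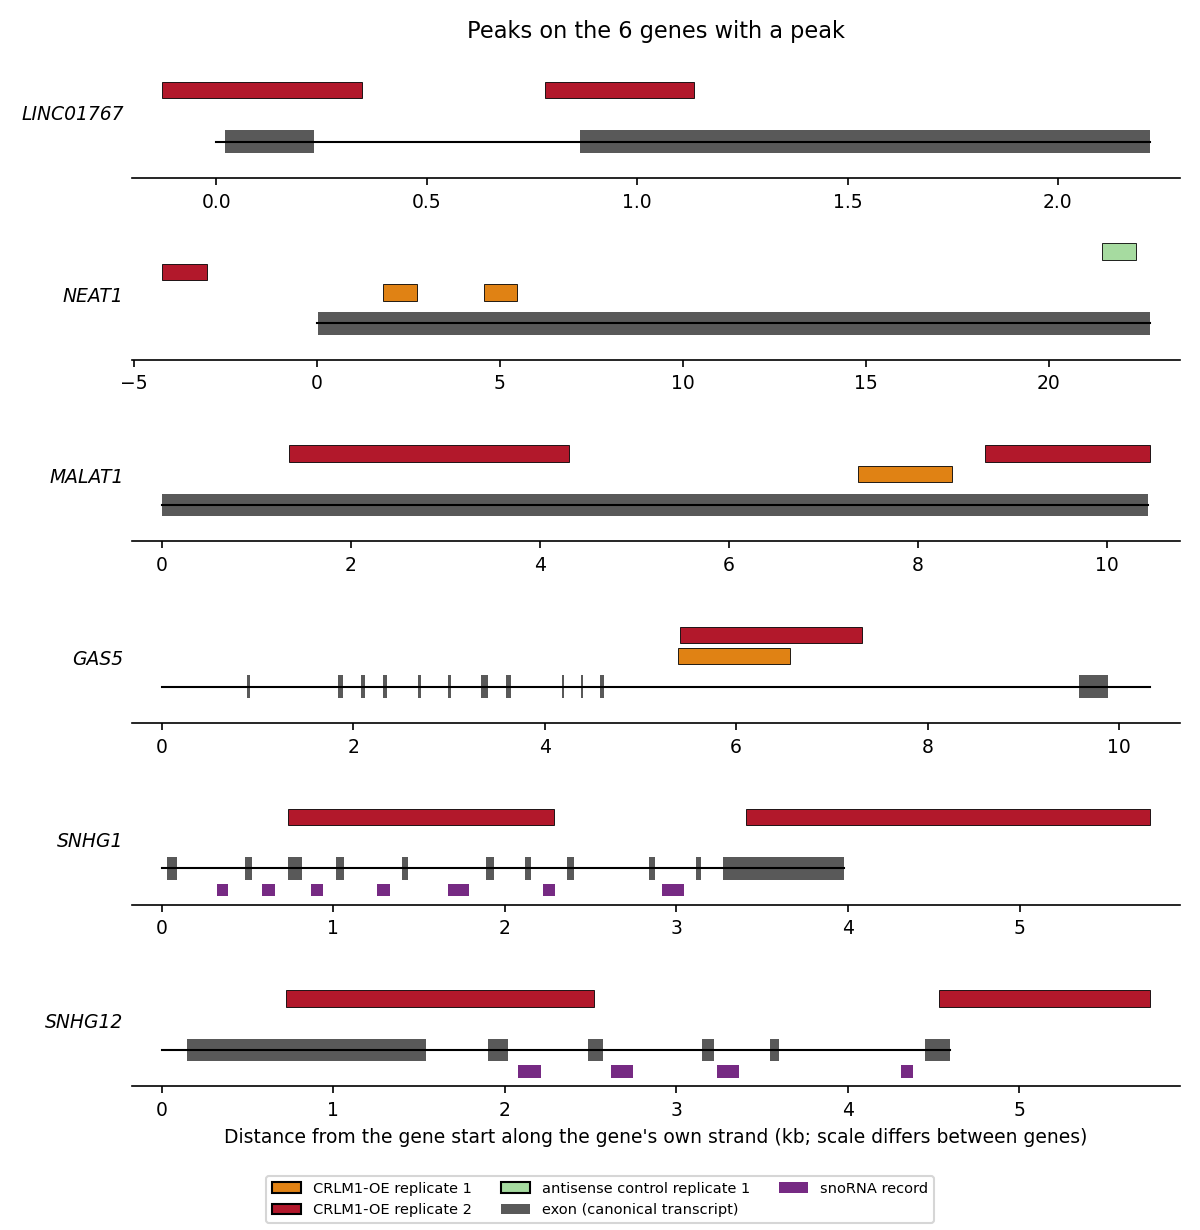
Peaks (coloured by list) over the 6 genes with a peak, by distance from the gene start in kb along the gene's strand, with canonical exons in grey and snoRNA records in purple; the scale differs between genes. The GAS5 peaks of the 2 CRLM1-OE replicates share 1149 bp, and the 4 NEAT1 peaks are apart.

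The remaining 4 genes carried no peak in any list. SNHG15 on chromosome 7 (44983019 to 44986961, minus strand), a snoRNA host, missed the rule narrowly. A peak of CRLM1-OE replicate 2 at 44981411 to 44982459, ranked 539 of 3163, lay 560 bp past its 3' end. For TUG1 on chromosome 22 (30969245 to 30979395, plus strand), which GENCODE 44 lists as protein-coding, the nearest peak was 35.7 kb away. For CCAT1, taken from RefSeq (127207382 to 127219268 on chromosome 8) because GENCODE 44 has no record by that name, it was 85.5 kb away. For PVT1 on chromosome 8 (127794526 to 128187101, plus strand) it was 479 kb away. The PVT1 window spans 398 kb, or 75.3% of the summed length of the 10 windows, and at the genome-wide density of peaks it would hold 2.09 peaks over the 6 lists, where 0 were found. The 500 kb on either side of PVT1 held 1 peak in all, against 26 around NEAT1 and 26 around MALAT1, which share most of their flanks, and 20 around SNHG1. The read depth of the libraries is unknown, so the lack of a peak says only that none was called.

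Compared across groups, the genes carried peaks mainly in CRLM1-OE, and most in its second replicate. In CRLM1-OE replicate 1, 3 of 10 genes carried a peak (NEAT1, MALAT1 and GAS5), where 5.15% of all lncRNA genes did. In CRLM1-OE replicate 2 the number was 6 of 10 (these 3 with LINC01767, SNHG1 and SNHG12), against 4.09%. The empty control lists had 0 of 10 each, where 2.09% and 2.76% of lncRNA genes carried a peak. Antisense control replicate 1 had 1 of 10, NEAT1, against 2.92%, and antisense control replicate 2 had 0 of 10, against 2.87%. A share of 0 of 10 is close to these backgrounds, at which fewer than 1 of 10 genes would carry one. Among protein-coding genes the shares were higher, with 10.6% and 9.38% in the CRLM1-OE lists. There the empty control lists had 3.50% and 5.71%, and the antisense control lists 5.70% and 5.84%.

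On average 4.5 ± 2.12 of the 10 genes carried a peak with CRLM1-OE (SD, n = 2). The empty control had 0 ± 0 and the antisense control 0.5 ± 0.707 (SD, n = 2 each). CRLM1-OE exceeded the empty control by 4.5 genes and the antisense control by 4 genes, both more than the combined replicate SDs of 2.12 and 2.24, and the groups did not overlap. The two-sided exact permutation test of the library labels gave p = 0.33 for each (n = 2 against 2, the smallest value that 6 arrangements allow). Against the 4 control lists together the difference was 4.25 genes (exact permutation p = 0.133, the smallest that 15 arrangements allow). The antisense control exceeded the empty control by 0.5 genes, less than the combined SD of 0.707 (exact permutation p = 1). These designs cannot reach 0.05. Without CRLM1-OE replicate 2 the difference from the antisense control was 2.5 genes and that from the 4 control lists 2.75 genes. LINC01767, whose signal cannot be told apart from the construct, is part of these counts. Without it CRLM1-OE replicate 2 had 5 genes. The differences from the empty control, the antisense control and the 4 control lists were then 4, 3.5 and 3.75 genes. With 1 kb on either side of the gene start in place of the whole gene, CRLM1-OE replicate 1 had 0 genes and replicate 2 had 3, LINC01767, SNHG1 and SNHG12, where 0.943% and 1.16% of all lncRNA genes carried such a peak. The 4 control lists had 0 of 10, where 0.217% and 0.376% of lncRNA genes did in the empty control and 0.466% and 0.525% in the antisense control. The groups then overlapped, since CRLM1-OE replicate 1 equalled the controls.

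**Figure D4:**
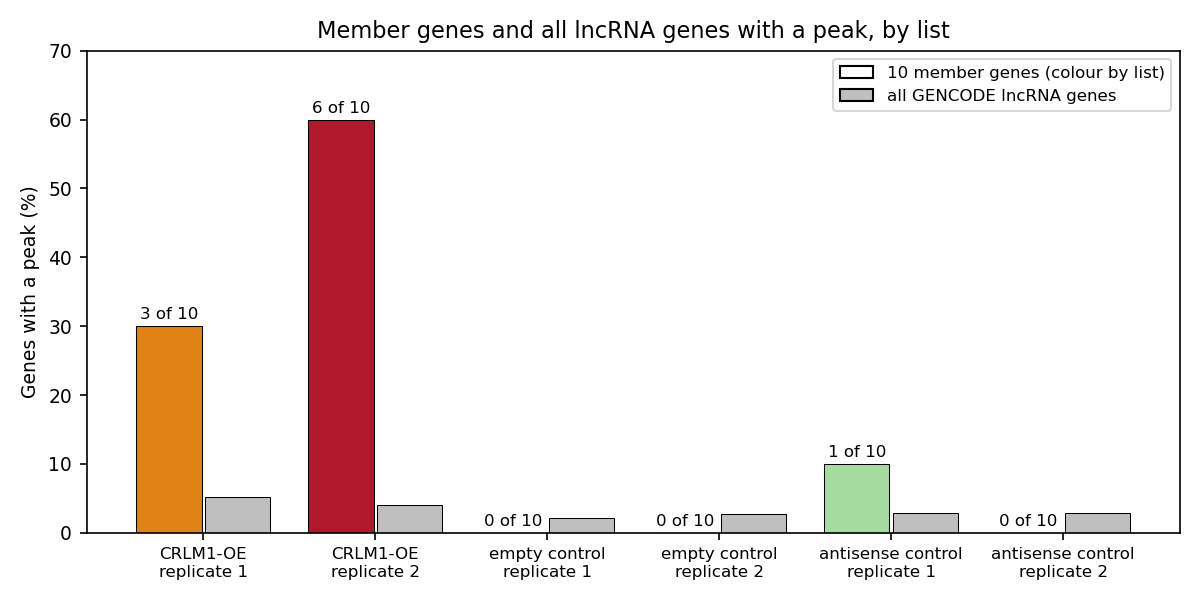
Percentage of the 10 genes (coloured bars, with the count above) and of all GENCODE lncRNA genes (grey bars) that carry a peak in each of the 6 lists. The coloured bars reach 30% and 60% in CRLM1-OE and at most 10% in the 4 control lists, while the grey bars stay between 2.09% and 5.15%.

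By pattern, NEAT1, MALAT1 and GAS5 (3 of 10) were met in both CRLM1-OE lists, where 0.843% of lncRNA genes were. MALAT1 and GAS5 (2 of 10) were so met without a peak in a control list, where 0.419% of lncRNA genes were. LINC01767, MALAT1, GAS5, SNHG1 and SNHG12 (5 of 10) were met in either CRLM1-OE list and in no control list, against 6.05%. NEAT1 alone was met in a control list, and 1 of 10 was near the background of 8.86%. The windows of the 10 genes, with a median of 15.2 kb, were somewhat longer than those of all lncRNA genes, with a median of 11.3 kb. Expressed per length, the windows held 0.758 and 1.89 peaks per 100 kb in the CRLM1-OE lists, where the genome held 0.14 and 0.102. In antisense control replicate 1 the windows held 0.189, where the genome held 0.0732, and in the other control lists they held 0. Without PVT1, whose long window was empty, the values were 3.07 and 7.67 per 100 kb in the CRLM1-OE lists and 0.767 in antisense control replicate 1. With PVT1 kept and LINC01767 left out, they were 0.768 and 1.54 in the CRLM1-OE lists and 0.192 in antisense control replicate 1. Expression of these genes was not measured in these files, and its part in the counts was not tested.

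List length and peak width differed between the lists, and their part in these counts was not tested. The CRLM1-OE lists were the longest, and lncRNA genes in general carried a peak more often there, by 1.96 percentage points in the mean. Cut to the 1000 peaks of highest score in each list, that difference over all lncRNA genes was 0.14 points. CRLM1-OE replicate 1 then kept MALAT1 alone of the 10 genes, whereas replicate 2 kept LINC01767, MALAT1, GAS5, SNHG1 and SNHG12, antisense control replicate 1 kept NEAT1, and the other 3 lists had 0. CRLM1-OE and the antisense control then overlapped, with 1 gene each in replicate 1, and the exact permutation p was 0.667 against the antisense control and 0.267 against the 4 control lists. CRLM1-OE replicate 1 and empty control replicate 2 had narrower peaks, with medians of 506 and 516 bp, than the other 4 lists, with medians between 662 and 747 bp. Between the 2 narrow lists the count was 3 against 0, and among the 4 wide lists it was 6 in CRLM1-OE against 0, 1 and 0. Each of these sets held 1 CRLM1-OE list, so they cannot show the part of width, which was not tested.

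The midpoint was in an exon of some transcript for 10 of the 15 peaks, in an intron for 2, upstream for 1 and downstream for 2, and for 8 it was in an exon of the canonical transcript. A single peak, on LINC01767, covered the outermost start of a gene record, and 3 peaks, on MALAT1, SNHG1 and SNHG12, covered the end. Starts of single transcripts lay in 4 peaks, 1 each on LINC01767 (9 of 9 transcripts), MALAT1 (45 of 66, at rank 166), SNHG12 (15 of 19) and SNHG1 (1 of 80). In CRLM1-OE replicate 2, 9 of 10 peaks were in the upper part of the list by score, above its median. The top 5% held 5 of them, the LINC01767 peaks included, and the median rank was at 4.69% of the list. In CRLM1-OE replicate 1, 3 of 4 were above the median score and the median rank was at 42.1%. Replicate 2 thus had more of these peaks and, by rank, higher ones.

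The GC content of the 15 peaks ran from 38.8% on MALAT1 to 58.8% upstream of NEAT1, and 13 of them were above the median of their list. The central 300 bases held CCCC on either strand in 14 of 15 peaks, the exception being the MALAT1 peak at rank 166, where 69.4% of all peaks did. CCCTCCC on either strand, which can overlap a run of 4 C, was found in 5 of 15, on NEAT1, MALAT1 and GAS5, where 12.7% of all peaks held it. Among 35116 RefSeq promoter windows of 300 bases, 89.6% held CCCC on either strand. These are matches of letters and not measured binding sites, and the part of GC content in them was not tested.

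Other lncRNA genes were counted by the same rule in 3 wider lists that do not hold the 10 genes. These lists too were chosen with earlier results of these data known. Their windows were longer than the median of 11.3 kb over all lncRNA genes, with medians of 17.1, 33.3 and 29.9 kb for the small RNA host, the nuclear and the cancer genes. Longer windows reach more peaks, so shares over all lncRNA genes are not a like background for them. Among the host genes of snoRNAs and other small RNAs, both CRLM1-OE counts were above all 4 control counts. Of 34 such genes, 10 and 11 carried a peak in the CRLM1-OE lists (29.4% and 32.4%), 2 and 3 in the empty control lists (5.88% and 8.82%) and 4 and 1 in the antisense control lists (11.8% and 2.94%), and the shares over all lncRNA genes given above were between 2.09% and 5.15%. Within 1 kb of the gene start the CRLM1-OE lists had 3 and 6 of these 34 genes and the 4 control lists 0, beside 0.943% and 1.16% of all lncRNA genes in CRLM1-OE and 0.217% to 0.525% in the controls. SNHG6, SNHG9, SNHG16, SNHG19, SNHG25 and SNHG29 (6 of 34, 17.6%) carried a peak in both CRLM1-OE lists, beside 0.843% of all lncRNA genes. All but SNHG16 (5 of 34, 14.7%) carried none in a control list, beside 0.419%. At SNHG6 and SNHG16 the peaks of the CRLM1-OE replicates did not overlap. SNHG25 had overlapping peaks over its start in both, with ranks 93 of 4339 and 56 of 3163. SNHG19 ranked 920 of 4339 and 7 of 3163, and the best SNHG9 peaks, upstream of its start and on RPS2 or NDUFB10, ranked 79 of 4339 and 40 of 3163. Many of these genes lie against protein-coding genes that met the rule with the same peaks, such as TRAF7 at SNHG19 and TEX2 at SNHG25. In contrast, DLEU2 had a peak in 5 lists, all 4 controls included, with its best rank of 37 of 2262 in antisense control replicate 1, and SNHG14 was met in both empty control lists.

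**Figure D5:**
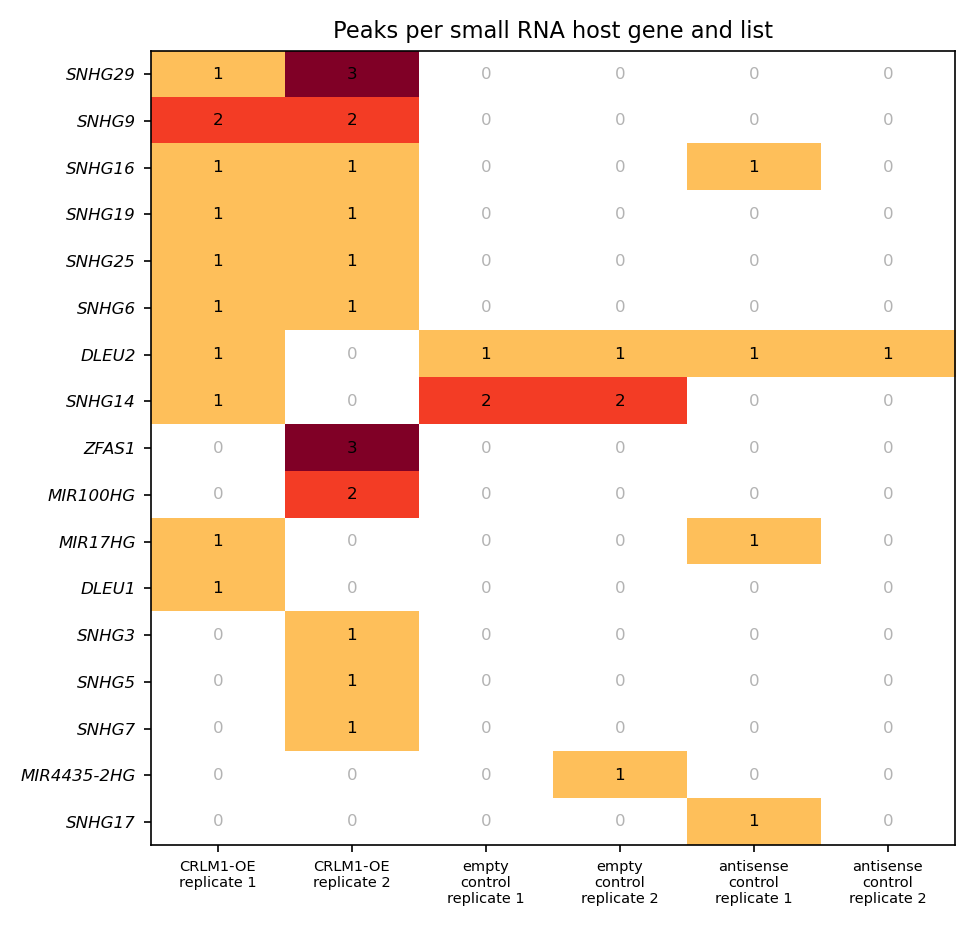
Number of peaks on each small RNA host gene of the wider list (17 of 34 genes with at least 1 peak) in each of the 6 lists, with the genes met in both CRLM1-OE lists at the top. SNHG9, SNHG19, SNHG25, SNHG29 and SNHG6 have peaks in both CRLM1-OE lists and 0 in the 4 control lists. The SNHG6 peaks of the CRLM1-OE lists do not overlap.

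In the other wider lists the counts of CRLM1-OE and of the controls overlapped. Of 30 nuclear and chromatin lncRNA genes, 3 and 2 carried a peak in the CRLM1-OE lists, 0 and 3 in the empty control lists and 0 and 2 in the antisense control lists. TALAM1 is among them through the MALAT1 peaks, and without it the CRLM1-OE counts were 2 and 1 of 29 (6.90% and 3.45%, beside 5.15% and 4.09% of all lncRNA genes). RMRP, the RNA of a mitochondrial and ribosomal RNA processing enzyme, had peaks over its start in both CRLM1-OE lists (rank 2111 of 4339 and 173 of 3163), and its best rank was in empty control replicate 2 (59 of 2607). Of 45 colorectal and other cancer lncRNA genes, 10 and 8 carried a peak in the CRLM1-OE lists (22.2% and 17.8%, beside 5.15% and 4.09% of all lncRNA genes), 3 and 3 in the empty control lists and 0 and 8 in the antisense control lists (0% and 17.8%, beside 2.92% and 2.87%). SAMMSON, HULC, CASC15, FOXP4-AS1, PCAT1 and CCDC26 were met in both CRLM1-OE lists, of which SAMMSON and FOXP4-AS1 were met in no control list. FOXP4-AS1 was the one of these whose peaks in the 2 replicates overlapped, at ranks 2982 of 4339 and 1114 of 3163, and it shares them with FOXP4. Antisense control replicate 2 thus equalled CRLM1-OE replicate 2 in this list.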

How the data were processed

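hnRNPK ChIP-seq libraries of HCT116 cells were grouped by their labels into CRLM1-OE, empty control and antisense control, with 2 immunoprecipitated and 2 input libraries each. As the study's methods state, the authors removed adapters (cutadapt 1.8.1), mapped reads to GRCh38 (Bowtie2) and called peaks (MACS2 2.2.5) against the matching input at a q-value cutoff of 0.01. The deposited lists give intervals and a score per peak without a header. No deposited score was under 50, and how this floor relates to the stated cutoff is not given in the sources used here, so scores served only for ranks within a list. Of the numeric columns, 0 were unused. Read depth per library is unknown.

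Peaks on chromosomes 1 to 22, X and Y were joined to GENCODE 44 genes, with CCAT1 from RefSeq GRCh38.p14, whose table gives no strand, so that 5 kb on both sides was used. Any touch of the gene body or the 5 kb upstream counted. Scripts ran in Python 3.11.15 with pandas 2.3.3 and numpy 2.4.6, and groups were compared by a two-sided exact permutation test over libraries (scipy 1.17.1). To check the counting code, artificial peaks were planted in 200 of 3000 sampled gene windows, and all 200 were found. Each planted peak started inside its window, so this checks the counting and not the detection of peaks. Sequence came from hg38 and from RefSeq promoter windows, with 6 of the 10 genes matched. A sequence at GAS5 is not reported here. The named genes were the 10 members with all their peaks, the other genes met by the same peaks, and genes of the 3 wider lists met in both lists of a group. Of 113 wider names, 109 were matched as separate genes. Members and lists were chosen with earlier results of these data known. Alternatives covered the gene window, overlap by midpoint, score limits, left-out genes and replicates, and, added after seeing the data, RefSeq gene records and the peak density without PVT1. Replicates share numbers across groups, and no paired design is stated.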

Additional observations from a re-analysis of the deposited data

How the results depend on the processing

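Of 68 alternative values, 54 stayed near the main value, 14 moved further, and 0 changed sign. Some of the 54 could not move. Permuting labels within a replicate number leaves the differences as they are, and PVT1 had no peak to lose from the gene counts. For differences in gene counts, moved meant a change of more than 1.5-fold, which is not the spread between replicates. The fall from 4.5 to 3 genes against the empty control, without CRLM1-OE replicate 2, was at that limit and counted as near. The moves between the controls, from 0.5 to 0 or 1 genes, were smaller than the combined SD of 0.707. With 1 kb on either side of the gene start, CRLM1-OE exceeded the empty control, the antisense control and the 4 control lists by 1.5, 1.5 and 1.5 genes, the antisense control differed from the empty control by 0 genes, and the excess over all lncRNA genes was 0.653 percentage points. With the 1000 highest-scoring peaks of each list, the differences were 2.5 genes from the antisense control, 2.75 genes from the 4 control lists and 0.14 points over all lncRNA genes. With peaks above the median score, the last was 1.11 points. Without 1 replicate at a time, the difference from the empty control ran from 3 to 6 genes, from the antisense control from 2.5 to 5.5, from the 4 control lists from 2.75 to 5.75, and between the controls from 0 to 1. The lowest values for CRLM1-OE came without CRLM1-OE replicate 2. The cause was not tested.

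With the replicate block, that is with labels permuted within a replicate number, the differences stayed 4.5, 4, 0.5 and 4.25 genes, and the exact permutation p was 0.5, 0.5, 1 and 0.222. The numbers are not stated to pair the libraries. RefSeq gene records, added after seeing the data, gave differences of 3.5, 3, 0.5 and 3.25 genes, since the GAS5 peaks lie outside its RefSeq record. Without PVT1, also added then, the mean CRLM1-OE density rose from 1.33 to 5.37 peaks per 100 kb, since its window is long and empty. With unknown depth and 2 lists per group, no comparison could pass 0.05, and a gene without a peak may still hold signal under the calling limit.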
